A study of Mus musculus with 2 samples.

Results

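The genes described here encode FXYD proteins and beta subunits of the sodium pump. They are Fxyd1, Fxyd2, Fxyd3, Fxyd4, Fxyd5, Fxyd6, Atp1b1 and Atp1b3, 8 genes chosen by symbol from the array's annotation. Of these, 7 had a probe of their own, among 22180 genes measured that way in all. The only probe listing Fxyd3 also lists Lgi4, so no level is given for Fxyd3. RNA came from the dorsal skin of 13-week-old NC/Nga females. The labels give an age of 6 weeks at the start. NC/Nga is an inbred mouse strain that readily develops dermatitis. In the ZAG group, dermatitis was induced for 6 weeks with an ointment of Dermatophagoides farinae (house dust mite) body extract, and recombinant ZAG was given on the skin for 6 weeks. ZAG, short for zinc-alpha-2-glycoprotein, is a lipid-mobilising protein found in secretions, and the series' design text gives its concentration as 1 μg/mL. In the control group the same dermatitis was induced without ZAG. The labels do not say whether the control skin received a vehicle. No skin without dermatitis was analysed here. The design text names 3 mice in each group, but the values come as 1 array per group. Whether an array holds 1 mouse, a pool or a mean is not given. The spread between mice is therefore unknown, and every difference below is a value without a test.

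The sodium pump exchanges cytoplasmic sodium for extracellular potassium and so maintains the gradients that drive other transport across the plasma membrane. Its alpha subunit carries out transport, and its glycosylated beta subunit is needed for folding, for delivery to the membrane and, in epithelia, for contacts between neighbouring cells. FXYD proteins are small single-span membrane proteins, named for a short shared sequence motif, that bind the pump and adjust its kinetics in a tissue-specific way. Fxyd5, also called dysadherin, has an unusually long extracellular part and is known for weakening cell-to-cell adhesion.

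Upstream sequence is shown for 3 of the genes. Fxyd5 had the lowest difference of the genes described, Atp1b1 had the highest, and Atp1b3, a second beta subunit gene, was at nearly the same level on both arrays. Each line holds the 250 bases before the annotated start (RefSeq, GRCm38.p6), 5′ to 3′ on the gene's strand. Capitals mark matches, on either strand, to any of 4 promoter motifs. The first is the GC box, spelled GGGCGG, a site of Sp family factors. The second is the CCAAT box, searched as its name spells it. The third is the TATA box, spelled TATAAA, which places the start of transcription. The last is the AP-1 site, spelled TGANTCA, bound by Fos and Jun proteins. No match to one motif overlapped a match to another in the 3 windows. Fxyd5 lies at chr7:31042332-31042581, Atp1b1 at chr1:164458356-164458605 and Atp1b3 at chr9:96364432-96364681, all on the minus strand.
Fxyd5: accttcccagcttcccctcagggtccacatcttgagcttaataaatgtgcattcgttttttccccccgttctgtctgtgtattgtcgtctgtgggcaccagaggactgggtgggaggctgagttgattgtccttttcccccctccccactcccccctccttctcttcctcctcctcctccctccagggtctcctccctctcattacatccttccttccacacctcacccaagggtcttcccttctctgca
Atp1b1: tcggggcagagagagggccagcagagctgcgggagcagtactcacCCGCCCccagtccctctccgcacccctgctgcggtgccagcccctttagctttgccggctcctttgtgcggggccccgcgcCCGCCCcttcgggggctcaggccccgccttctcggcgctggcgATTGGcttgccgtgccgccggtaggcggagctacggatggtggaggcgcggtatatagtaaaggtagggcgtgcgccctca
Atp1b3: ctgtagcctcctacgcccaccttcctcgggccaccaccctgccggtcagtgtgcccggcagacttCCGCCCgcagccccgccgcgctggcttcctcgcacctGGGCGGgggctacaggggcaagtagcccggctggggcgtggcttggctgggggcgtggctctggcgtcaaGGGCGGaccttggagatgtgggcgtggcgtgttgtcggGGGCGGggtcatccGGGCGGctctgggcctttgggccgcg

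The window of Fxyd5 held 3 CpG dinucleotides and no match to any of these motifs. The windows of Atp1b1 and Atp1b3 held 24 CpG dinucleotides each, against a median of 6 over 32851 upstream windows of that length. The Atp1b1 window had 2 GC boxes and 1 CCAAT box, and the Atp1b3 window shown had 5 GC boxes. Atp1b3 has another annotated start, whose window (chr9:96363716-96363965) held 35 CpG dinucleotides and no match to any of the motifs. A GC box was found in 32.7% of all windows, a CCAAT box in 33.8%, a TATA box in 12.4% and an AP-1 site in 6.75%. The beta subunit windows were thus richer in CpG than the Fxyd5 window. Few CpG dinucleotides were not particular to Fxyd5, since the Fxyd1 and Fxyd4 windows also held 3 each and those of Fxyd3 and Fxyd6 held 5 each. The Fxyd1, Fxyd4 and Fxyd6 windows do not lie at the annotated 5′ end of the gene, unlike those of Fxyd5 and Fxyd3. The Fxyd1 window, too, had no match to any of the motifs. An upstream window was matched for 7 of the 8 genes, all but Fxyd2. These matches describe letters only, and the arrays do not measure binding.

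Values are deposited log2 levels, and a difference is the ZAG level minus the control level. Levels of different genes are read by different probes and are not set against each other, though the marker sums below add them. The background gauge, 3.16, is the mean level below which 95% of 1390 odorant and pheromone receptor genes lay, since skin is not known for expressing these genes. Of the 8 genes, 6 had a mean level at or above it. Among all 13593 genes at or above the gauge, 642 (4.72%) were lower with ZAG by 1.5-fold or more and 341 (2.51%) were higher by as much. With no threshold, 47.5% of them were lower and 52.4% higher. Of the genes described, 0 were past 1.5-fold lower and 1 was past 1.5-fold higher in the values as deposited. So few genes cannot be set against these shares. Their median difference over those 6 was -0.01, beside 0.02 over all 13593 genes. In these 2 arrays the genes did not differ in one direction. Fxyd5 was lower with ZAG, Atp1b1 was higher, and the others differed little or were dim.

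Fxyd5 was at 6.08 in the ZAG array, against 6.67 in the control array. The difference was -0.58, or 1.499-fold lower, and its one probe stood well above the gauge on both arrays. The fold stood just inside the 1.5-fold line. With each array centred on its median the difference was -0.61 (1.53-fold), and after loess it was -0.61 (1.52-fold), both past that line, while after quantile normalization it was -0.57 (1.49-fold). Of the genes at or above the gauge, 4.75% had a lower difference than Fxyd5. Over 800 genes with more than 1 probe, probes of a gene scattered in their difference with an SD of 0.25, a measure of how far probes of one gene scatter that says nothing of how far mice do.

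The other FXYD genes differed less. Fxyd1 encodes phospholemman, the FXYD protein of heart and skeletal muscle and a kinase substrate. Its level was 5.43 in the ZAG array and 5.42 in the control array, a difference of 0.00. The sign of this value has no meaning, since it turned to -0.02 when the arrays were centred on their medians. Fxyd6, which encodes phosphohippolin, an FXYD protein known from brain and inner ear, was at 6.27 with ZAG and 6.45 in control. Its difference of -0.18 was smaller than that SD.

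Fxyd2 encodes the pump's gamma subunit, known from the kidney. It was at 3.38 with ZAG and 3.28 in control, just above the gauge, with a difference of 0.11. Fxyd4 encodes CHIF, a regulator known from kidney collecting duct and colon. It was at 2.72 with ZAG and 3.03 in control, under the gauge each time, and it is given no fold. Fxyd7, a brain FXYD gene that completes the family, was at 3.82 with ZAG and 3.74 in control.

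Set against the 4 other FXYD genes with a mean level at or above the gauge (Fxyd1, Fxyd2, Fxyd6 and Fxyd7), whose median difference was 0.04, Fxyd5 lay -0.63 from that median on the log2 scale. Each of those 4 genes differed by less than the SD between probes. With genes at or above the median level of all genes, which leaves out Fxyd2 and Fxyd7, Fxyd5 lay -0.50 from the FXYD median. The probe shared by Fxyd3 and Lgi4 was at 8.05 in the ZAG array and 8.26 in the control array, a difference of -0.21. Lgi4, which encodes a secreted protein of Schwann cells, also has a probe of its own, which was at 3.67 with ZAG and 3.99 in control. Which transcript the shared probe read was not tested.

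**Figure D1:**
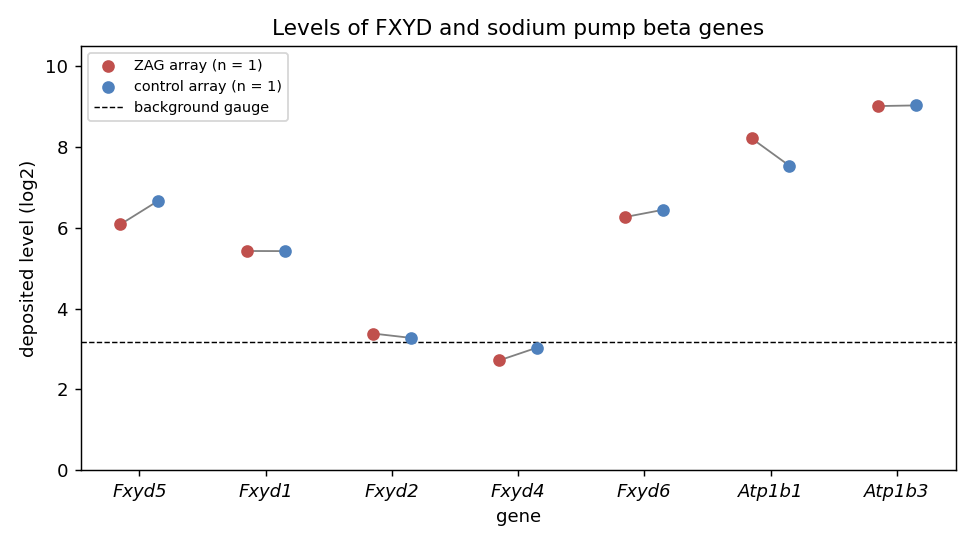
Deposited log2 level (vertical axis) of the 7 genes with a probe of their own, with the ZAG array (red) left of the control array (blue) for each gene and 1 array per group. The dashed line is the background gauge at 3.16. Fxyd5 is lower and Atp1b1 higher in the ZAG array, while Fxyd4 lies below the line on both arrays.

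Of the beta subunit genes, Atp1b1 differed most. It encodes the widely expressed beta subunit that also joins epithelial cells to their neighbours. Its level was 8.21 in the ZAG array, against 7.53 in the control array. The difference was 0.68, or 1.60-fold higher, and 1.52% of the genes at or above the gauge had a higher one. Under the other scalings it was between 0.63 and 0.66, past 1.5-fold each time.

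Atp1b3, which encodes a beta subunit also known as the surface antigen CD298, was at 9.01 with ZAG and 9.03 in control. Its difference of -0.02 was far smaller than the SD between probes, and it reached -0.09 after loess. The other genes of the beta subunit family read near the gauge or below it. Atp1b2, the gene of the glial adhesion subunit AMOG, was at 3.60 with ZAG and 3.76 in control. Atp1b4, known from muscle, was at 2.50 with ZAG and 2.97 in control, below the gauge on both arrays. Fxyd7 and Atp1b2, both outside the 8 genes described but at or above the gauge, had a median difference of -0.04.

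Of the alpha subunits, Atp1a4, the gene of the sperm form, was at 2.81 with ZAG and 2.88 in control, below the gauge on both arrays. The comparison of Fxyd5 with the pump given here rests on 3 beta subunit genes. Their median difference was -0.02, and Fxyd5 lay -0.57 from it. With genes at or above the median level of all genes, which leaves out Atp1b2, that value was -0.92, because the median then falls between Atp1b1 and Atp1b3. Atp1b1 and Fxyd5 thus differed in opposite directions, and Atp1b3 lay between them.

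**Figure D2:**
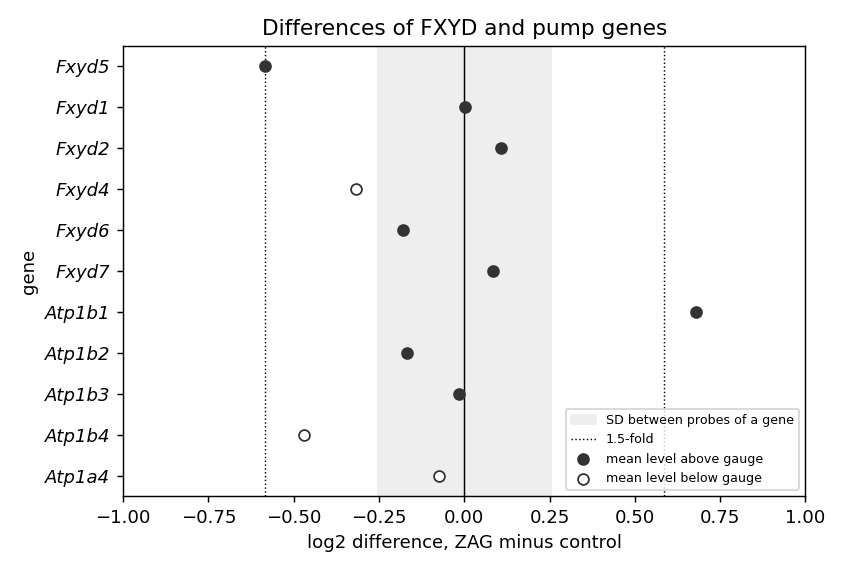
Log2 difference, ZAG minus control (horizontal axis), of the FXYD and pump genes with a probe of their own. Filled points have a mean level above the gauge and open points below it, the grey band spans 1 SD between probes of one gene (0.25) on each side of 0, and dotted lines mark 1.5-fold. Fxyd5 lies at the lower line, Atp1b1 past the upper one, and the other filled points lie inside the band.

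**Figure D3:**
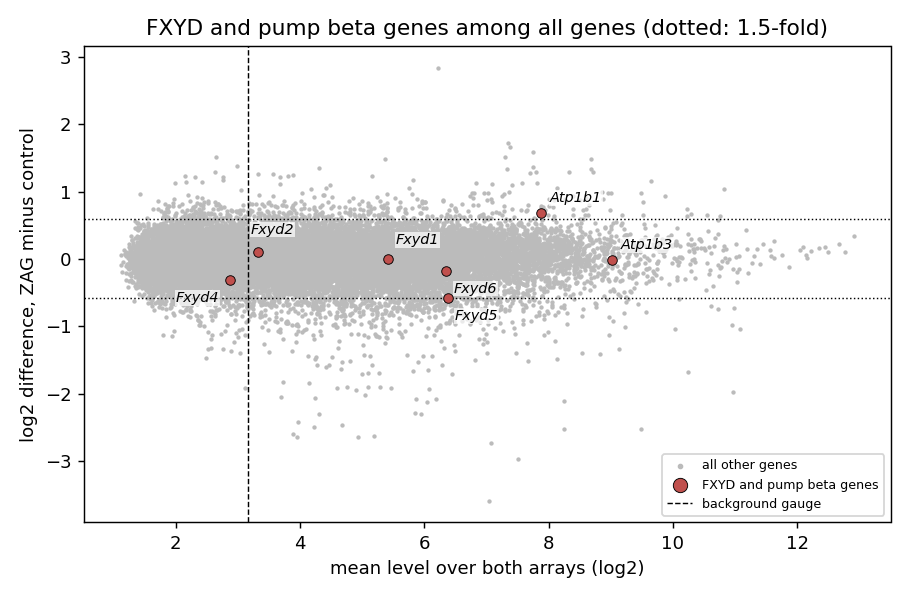
Log2 difference, ZAG minus control (vertical axis), against mean log2 level over both arrays (horizontal axis) for all 22180 genes in grey, with the 7 FXYD and pump beta genes in red. Dotted lines mark 1.5-fold and the dashed line the background gauge. Fxyd5 lies at the lower dotted line and Atp1b1 past the upper one, both inside the grey cloud, and many other genes lie farther out.

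Fxyd5, Fxyd7, Fxyd1 and Fxyd3 lie close together on mouse chromosome 7, and their neighbours were read from the gene order of the GRCm38.p6 annotation. The nearest protein-coding genes on one side of Fxyd5 were Fam187b, Lsr, Usf2, Hamp and Hamp2, and on the other Fxyd7, Fxyd1, Lgi4, Fxyd3 and Hpn. Lsr, the gene of a lipoprotein receptor of tricellular junctions, was at 5.82 with ZAG and 5.63 in control. Usf2, a transcription factor gene, was at 5.48 with ZAG and 5.41 in control.

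Hpn, the gene of the membrane protease hepsin, was at 3.29 with ZAG and 3.16 in control, where it was just below the gauge. Fam187b, Hamp and Hamp2 were below the gauge on both arrays. Among the neighbours with a mean level at or above the gauge, differences ran from -0.32 in Lgi4 to 0.20 in Lsr. Fxyd5 had a larger difference in size than any of its measured neighbours.

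**Figure D4:**
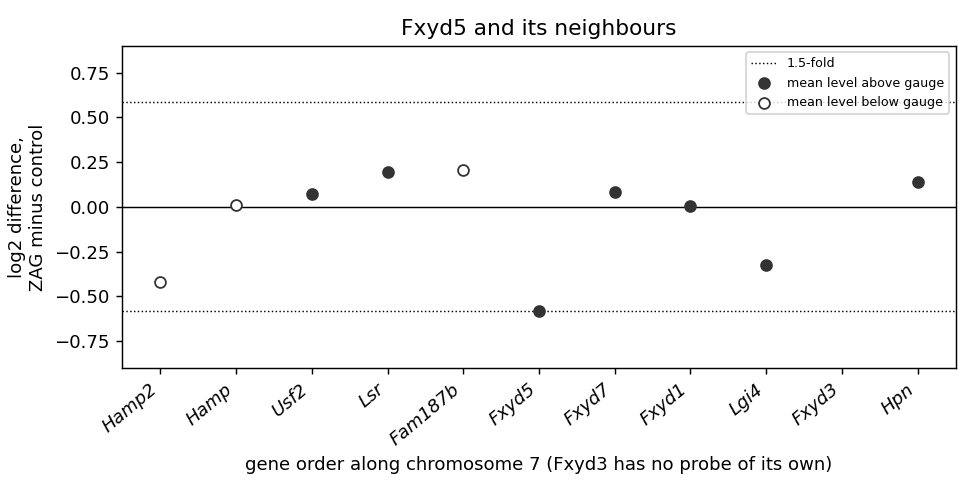
Log2 difference, ZAG minus control (vertical axis), of Fxyd5 and the 5 protein-coding genes on each side of it, in their order along chromosome 7 (horizontal axis, not to scale). Filled points have a mean level above the gauge, open points below it, and dotted lines mark 1.5-fold. Fxyd5 lies at the lower line and its neighbours lie nearer to 0, with no point for Fxyd3.

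Genes that act with or beside the pump were read as lists. Over all genes at or above the gauge, 4.72% were past 1.5-fold lower and 2.51% past 1.5-fold higher. Counts in lists this short cannot be set against those shares. Of 12 genes for pump partners and for kinases and ligases that regulate sodium transport, 11 had a mean level at or above the gauge, with 5 lower and 6 higher and 0 past 1.5-fold either way. Their median difference was 0.01, and it turned negative under 5 of the 6 alternatives, between -0.15 and -0.01. Nkain1, which encodes a membrane protein that interacts with the pump, was at 5.35 with ZAG and 5.91 in control. Wnk1, the gene of a kinase that controls sodium and chloride transporters, was at 8.05 with ZAG and 8.49 in control. Oxsr1, the gene of a kinase that acts downstream of Wnk1, had a difference of 0.20, and Nkain4, a relative of Nkain1, had 0.17.

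Sodium, potassium and chloride transport genes, 33 in the list, had 23 members at or above the gauge. Of these, 14 were lower and 9 higher, with 2 past 1.5-fold in each direction and a median of -0.13. Slc9a2, which encodes a sodium-proton exchanger, was at 5.78 with ZAG and 4.54 in control. Atp12a encodes the alpha subunit of the non-gastric proton-potassium pump, a close relative of the sodium pump that also pairs with a beta subunit. It was at 7.24 with ZAG and 6.34 in control, a difference of 0.90 (1.87-fold higher).

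Scnn1a, which encodes the alpha subunit of the epithelial sodium channel, was at 6.24 with ZAG and 6.92 in control, or 1.60-fold lower. The other subunits of that channel, chosen after their values were seen, had differences of -0.06 (Scnn1b) and -0.34 (Scnn1g). Kcnk1, a potassium leak channel gene, was at 4.54 with ZAG and 5.16 in control, or 1.53-fold lower. In the list, then, Slc9a2 and Atp12a were past 1.5-fold higher, and Scnn1a and Kcnk1 past 1.5-fold lower. A link of these genes to Atp1b1 or Fxyd5 was not tested.

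Calcium pumps and their small membrane regulators were read for comparison, since the regulators bind a related pump much as FXYD proteins bind theirs. Of 12 genes, 9 were at or above the gauge, with 3 lower and 6 higher, 2 past 1.5-fold higher, 0 past 1.5-fold lower and a median of 0.22. Atp2c2, a Golgi calcium pump gene, was at 5.70 with ZAG and 4.92 in control. Mrln, the gene of myoregulin, the micropeptide inhibitor of the muscle calcium pump, was at 3.79 with ZAG and 3.16 in control, where it was just below the gauge, and so was at least 1.54-fold higher. Atp2a2, the calcium pump gene mutated in Darier disease of the skin, was at 8.81 with ZAG and 9.29 in control. Atp2a3, the gene of a calcium pump of blood cells and some epithelia, had a difference of -0.16.

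Because dysadherin is known for its effect on E-cadherin adhesion, adherens junction genes were listed too. Of 7 genes, 6 were at or above the gauge, with 5 lower, 1 higher, 1 past 1.5-fold lower and a median of -0.15. Cdh1, the E-cadherin gene, was at 6.18 with ZAG and 6.33 in control. Cdh3, the P-cadherin gene, was at 6.84 with ZAG and 7.21 in control. Jup, the plakoglobin gene, was at 8.40 with ZAG and 9.11 in control, or 1.64-fold lower.

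The catenin genes differed by -0.02 (Ctnna1), 0.16 (Ctnnb1) and -0.16 (Ctnnd1), all within the SD between probes. Cdh2, the N-cadherin gene, was below the gauge on both arrays. Fxyd5 was thus lower by more than Cdh1 or Cdh3 and by less than Jup. This orders values of 2 arrays and was not tested.

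The arrays read whole skin, in which fewer cells of a type and less RNA per cell cannot be told apart. The skin markers Krt14, Krt1 and Krt10 were at 10.62, 11.80 and 12.16 with ZAG and at 11.35, 11.93 and 12.15 in control, all far above the gauge. Of all genes at or above the gauge, 47.5% were lower with ZAG and 52.4% higher. Marker lists this short cannot be set against those shares. Beside the lower Fxyd5, leukocyte markers were lower for 7 of 9 genes, with a log2 summed level of 10.16 with ZAG and 10.40 in control. The 2 higher ones were Cd3g, at a difference of 0.72, and Adgre1, at 0.09. A summed level adds the markers off the log scale, so it mostly follows the brightest probes and is no measure of cell number. In leukocytes the brightest was Lyz2, at 9.50 with ZAG and 9.65 in control. Endothelial markers were lower for 3 of 4 genes (7.96 with ZAG and 8.57 in control) and fibroblast markers for 4 of 5 (12.44 with ZAG and 12.71 in control). Basal keratinocyte markers were lower for 3 of 3 measured genes (10.87 with ZAG and 11.54 in control), a sum that mostly follows Krt14. None of these 4 lists had a measured marker with a mean level below the gauge.

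Beside the higher Atp1b1, hair markers were higher for 5 of 5 measured genes (13.13 with ZAG and 12.66 in control). Adipocyte markers were higher for 5 of 5 (11.33 with ZAG and 10.79 in control) and skeletal muscle markers for 6 of 8 (11.0 with ZAG and 10.51 in control). The muscle markers were split, with Myh4 at a difference of 1.59 and the 2 lower ones, Myh2 and Myh1, at -1.69 and -0.92. Melanocyte markers were higher for 4 of 4 (9.34 with ZAG and 8.97 in control) and sebaceous gland markers for 3 of 4 (11.49 with ZAG and 11.44 in control). Suprabasal keratinocyte markers were lower for 3 of 5 (13.38 with ZAG and 13.43 in control), and smooth muscle and pericyte markers were higher for 3 of 5 (9.81 with ZAG and 9.76 in control). Markers of glandular epithelium were higher for 3 of 4, but their summed level was 6.59 with ZAG and 6.82 in control. Schwann cell and nerve markers were lower for 3 of 3 measured genes (5.52 with ZAG and 6.13 in control), and S100b among them was below the gauge on both arrays. The part of these cell types in the values of Fxyd5 and Atp1b1 was not tested.

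**Figure D5:**
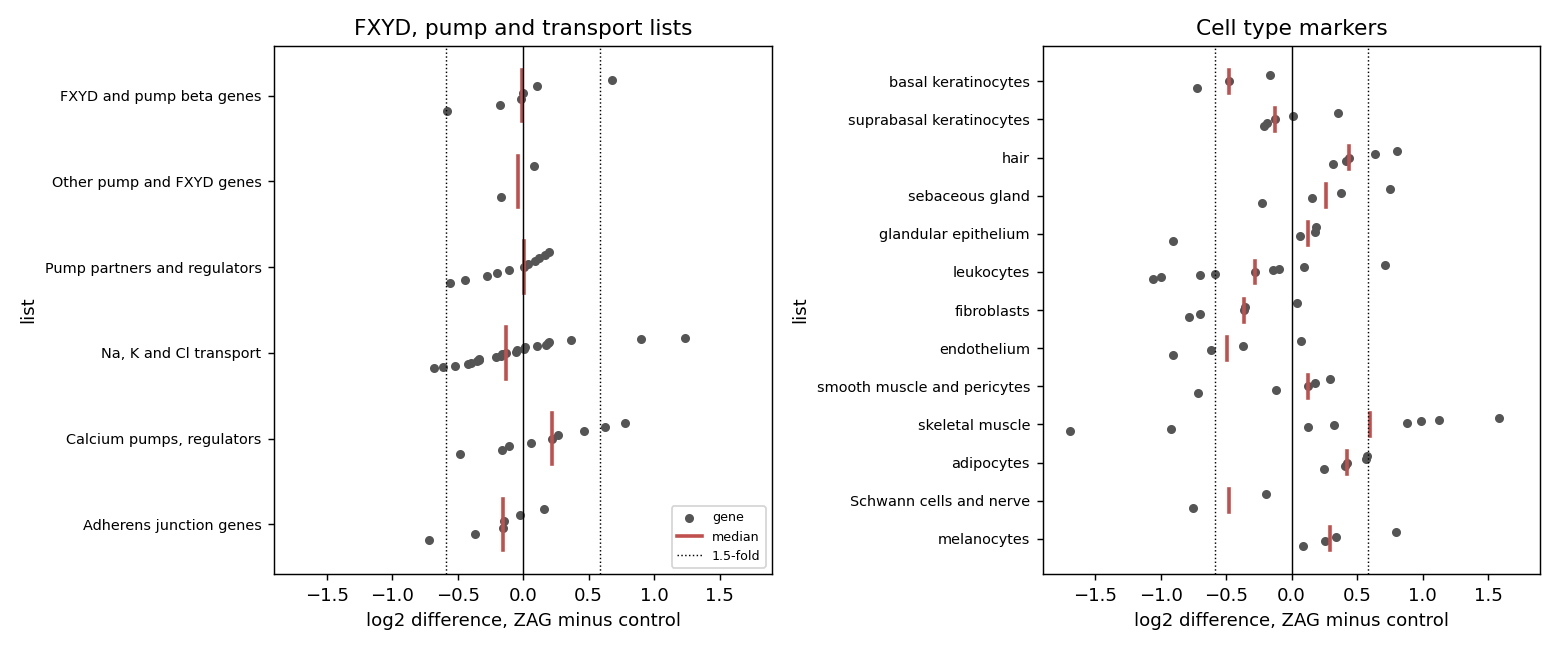
Log2 difference, ZAG minus control (horizontal axis), of each gene with a mean level at or above the gauge (points) and the median of each list (red bars), for the FXYD, pump and transport lists on the left and the cell type markers on the right. Dotted lines mark 1.5-fold. The FXYD and pump beta genes lie on both sides of 0. Marker medians lie below 0 for leukocytes, fibroblasts, endothelium, basal and suprabasal keratinocytes, and Schwann cells and nerve. All other marker medians lie above 0.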

How the data were processed

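RNA from dorsal skin was labelled with biotin as fragmented sense cDNA and read on Affymetrix arrays, per the labels' protocols. The authors deposited log2 values, a unit read here from their range. How the authors corrected, summarised and normalized them is not stated in these sources. The column medians were 3.36 (ZAG) and 3.33 (control). Of 33793 probes, 23521 had 1 gene symbol in the platform annotation, 1814 had several and 8458 had none. Probes with 1 symbol were used and averaged per gene. The number of arrays limits the precision, and with 1 in each group no test was run.

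The genes described and the lists were chosen with earlier results of these data known. Genes with a probe of their own are named from the shorter pump, transport and junction lists, and from such lists of more than 10 genes the 2 highest and 2 lowest differences at or above the background gauge. Some genes are not reported here. Calls are differences of at least 1.5-fold among 13593 genes. The counting was checked on simulated data. Alternatives were median centring, quantile normalization, loess (span 0.3), the brightest probe, other level filters and other fold thresholds. The software was matplotlib 3.10.9, statsmodels 0.14.6, pandas 2.3.3 and numpy 2.4.6 under Python 3.11.15.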

Additional observations from a re-analysis of the deposited data

How the results depend on the processing

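Of 85 values recomputed under other settings, 80 moved by less than the SD between probes of a gene (0.25), or, for counts, by less than 1.5 times. Some of these 80 could not move, so the number overstates how much was checked. Centring on medians takes the same 0.03 from every difference, which leaves the distance of Fxyd5 from the median of other genes as it was. The 5 others follow from how the settings were built. The difference of Fxyd5 from the median of the pump subunits was -0.92 over genes at or above the median level, where fewer subunits remain. At 2-fold, 138 genes were lower and 35 higher in the ZAG array, and with the threshold at 0.32 on the log2 scale 1934 were lower and 1749 higher. Each measured gene of those described had 1 probe, so taking the brightest probe gave back the deposited difference and was no check on it. Fxyd5 stayed lower in the rescaled arrays (-0.61 to -0.57), whether by loess, quantiles or medians. Atp1b1 stayed higher (0.63 to 0.66). Fxyd1 turned from 0.00 to -0.02 with the arrays centred on their medians and to -0.01 after loess. The number of genes described that were past 1.5-fold lower was 1 under median centring and loess and 0 as deposited. No paired analysis was possible because each group has 1 array, and for the same reason no array could be left out. Genes near the gauge, such as Fxyd2, read background in part.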
